A study of Heterocephalus glaber with 3 samples.

Results

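Solute carrier transporters are the membrane proteins that move amino acids, sugars, metal ions, nucleosides, vitamins and mitochondrial metabolites across cell and organelle membranes. They were taken as every gene symbol of the deposited feature list, upper or lower case, that consists of SLC, a family number, the letter A and a member number, apart from SLC2A1, SLC7A11 and SLC34A2. The rule gave 239 of 23189 features, in 49 families. Of these 223 had at least 1 unique molecular identifier (UMI, a count of 1 captured transcript) in the kept cells, and 16 were at 0. After the filter on low counts 131 were tested and 108 were not.

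The data are single-cell RNA counts, read at the 3′ end of the transcript, from tumours dissected by hand out of the lungs of 3 Heterocephalus glaber, the naked mole-rat, with 1 library for each. All animals belong to 1 group, were infected with an adenovirus whose edits include loss of Rb and the inversion that joins Eml4 to Alk, and were sampled 15 weeks later. Neither their age nor an untreated animal is given in the labels used here, and the edits are shared by the whole group, so nothing below separates an effect of the edits. The comparisons set lineages of the same 3 animals against each other.

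The kept cells numbered 7929, 8891 and 7779 in animals 1, 2 and 3, and the transporters held 0.245%, 0.316% and 0.267% of their UMIs. Unnormalised library totals before cell filtering were 76093932, 86575320 and 91949365 UMIs. Libraries shared 21 to 31 cell barcodes in pairs, 0 of them with an equal UMI total. Clustering that left the transporters out gave 27 clusters, and 10 lineages with enough cells in every animal were named from fixed markers. These were T or NK-like cells (5310), monocyte or macrophage-like cells (4833), fibroblast-like cells (2981), plasma-like cells (2388), neutrophil-like cells (1606), B-like cells (1318), dendritic-like cells (1189), epithelial-like cells without the ciliated ones (502), endothelial-like cells (198) and ciliated cells (140, called ciliated-like). Each lineage's measured markers were highest in it for 6 of 10 in monocyte or macrophage-like cells, 6 of 9 in dendritic-like cells, 4 of 5 in plasma-like cells, 17 of 19 in epithelial-like cells and 13 of 14 in T or NK-like cells, and for every measured marker in the 5 others. Osteoclast-like cells came almost wholly from animal 2 (192 of 202), and 7 further clusters stayed unnamed, so these were not in the comparison.

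Which transporters a cell carries decides which nutrients it can take up or release. Macrophages are known for moving iron out of engulfed red cells, ciliated and alveolar cells for handling solutes at the air surface, endothelium for clearing nucleosides from blood, and antibody-secreting cells for a high demand for amino acids. Levels are given as CPM, the gene's share of all UMIs of the lineage on the usual scale of that unit, with 1 value per animal. A 3′ UMI count does not grow with transcript length, but capture differs between genes, so tests compared lineages and not genes.

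A transporter was said to set a lineage apart where 4 conditions held. It had to be higher than the unweighted mean of the other 9 lineages at a Benjamini-Hochberg adjusted p under 0.05 in edgeR's quasi-likelihood test, by a log2 fold change of at least 1. It also had to be highest by CPM in that lineage in 3 of 3 animals, with at least 10 UMIs there. Where 1 animal was left out, it had to be highest only in the animals that remained, which asks for less. By this rule 44 of the 131 tested transporters set a lineage apart, beside 34.3% of all 12556 features tested. The filter keeps a gene that is high in 1 lineage only, and the lineages were drawn from other genes of the same cells, so the p-values are not calibrated and the count is a description. With every cell thinned to 1000 UMIs, 20 of the 44 calls were kept. Several of the 44 had an edgeR adjusted p of 0.05 or more against the next highest lineage, which the rule does not test. They were SLC38A6, SLC40A1, SLC16A7 and SLC12A4 in ciliated-like cells. In endothelial-like cells they were SLC45A3, SLC30A4, SLC30A3, SLC44A2 and SLC49A4. In epithelial-like cells they were SLC39A8, SLC16A4 and SLC27A4. The others were SLC46A3 in B-like, SLC2A11 and SLC25A13 in fibroblast-like and SLC15A4 in monocyte or macrophage-like cells. By family role, 8 of 18 tested metal ion transporters, 7 of 13 vitamin, folate, nucleoside and choline transporters, 6 of 22 mitochondrial carriers and 5 of 21 members of the mainly amino acid families were among the 44. These roles follow the family numbers, so the noradrenaline and serotonin transporters stand among the amino acid families.

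**Figure D1:**
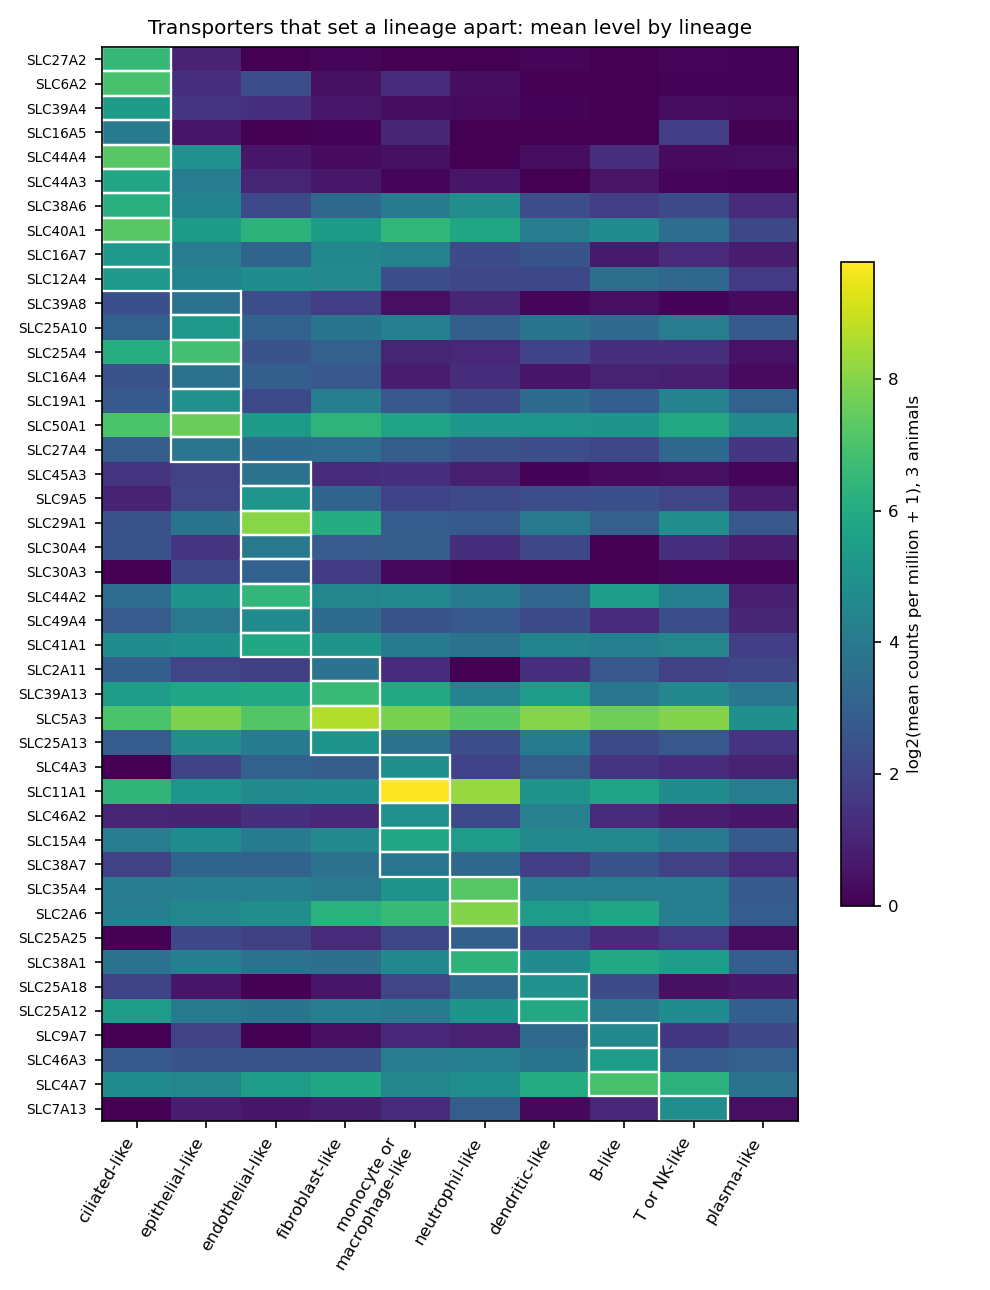
Mean level of the 44 transporters that set a lineage apart (rows) in the 10 lineages (columns), as log2(mean CPM + 1) over 3 animals. White frames mark the lineage each one sets apart, 10 of them in ciliated-like cells and none in plasma-like cells, while several rows are bright in a second lineage too.

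**Figure D2:**
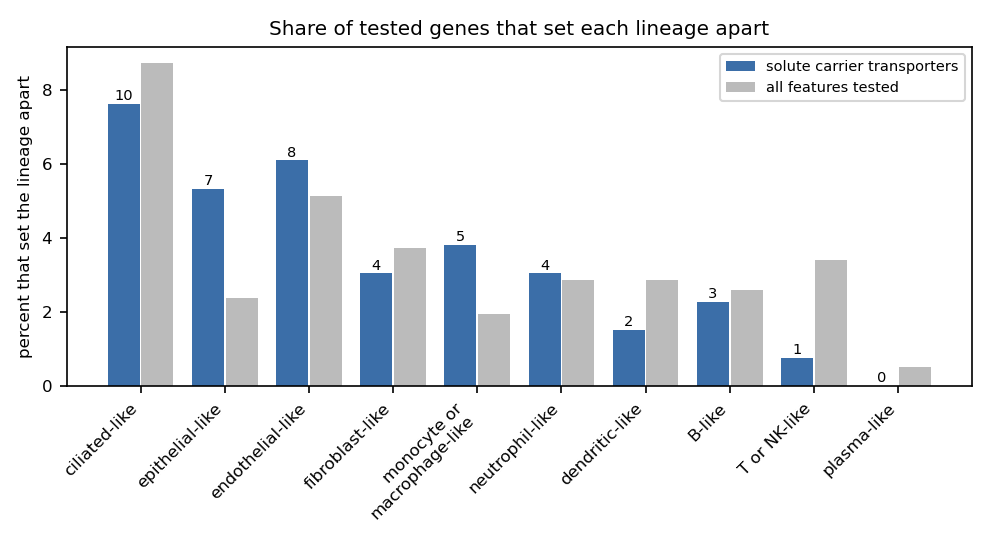
Percent of tested transporters (blue, with the number above the bar) and of all 12556 tested features (grey) that set each lineage apart. Transporters stood at 5.34% in epithelial-like cells beside 2.38% of all features, and at 0.763% in T or NK-like cells beside 3.42%.

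Ciliated-like cells were set apart by 10 transporters, or 7.63% of those tested, near the 8.74% of all features. They carried the noradrenaline transporter SLC6A2, the fatty acid transport protein SLC27A2 and the zinc importer SLC39A4 well above every other lineage, and the choline transporter-like genes SLC44A4 and SLC44A3 above the rest of the epithelium. SLC27A2 had 150, 41.6 and 78.2 CPM in ciliated-like cells of animals 1, 2 and 3, against 2.45, 0 and 0.320 CPM in epithelial-like cells, the next lineage. SLC6A2 had 135, 57.2 and 172 CPM, against 12.3, 0 and 0 CPM in endothelial-like cells. Neither gene's groups overlapped, and in both animal 2, with 25 ciliated-like cells, was the lowest. That library stood apart in markers of other cells. The 5 measured plasma markers summed to 3158, 82468 and 2723 CPM in ciliated-like cells of animals 1, 2 and 3, and the 14 T or NK markers to 58.7, 656 and 241 CPM. Without animal 2 the ciliated-like list had 14 transporters, and SLC27A2 and SLC6A2 had means of 114 and 153 CPM. Ciliated-like cells held 112 of the 207 SLC6A2 UMIs of the kept cells. At a finer clustering an unnamed cluster of 67 cells, all of animal 1, had SLC6A2 among its leading genes. The means by lineage do not show such a group. SLC39A4 had 32.3, 52.02 and 34.4 CPM, against 2.45, 1.16 and 1.60 CPM in epithelial-like cells. In the same fit the log2 difference from the next lineage was 6.39 ± 0.53 (SE, n = 3 animals) for SLC27A2, 5.37 ± 1.18 for SLC6A2 and 4.10 ± 0.48 for SLC39A4 (edgeR adjusted p = 2.0e-09, 0.00097 and 1.6e-07).

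SLC44A4, which is known to carry thiamine pyrophosphate in human cells, was shared in part with the rest of the epithelium. It had 112, 208 and 128 CPM in ciliated-like cells, against 35.5, 30.1 and 24.004 CPM in epithelial-like cells. SLC44A3 had 73.4, 52.02 and 34.4 CPM in ciliated-like cells, against 17.1, 19.7 and 11.5 CPM. Both stood above every epithelial-like library, and the lineage after that was at 1.57 CPM or less in the mean. SLC16A5, a monocarboxylate transporter family member, rested on 14 UMIs in ciliated-like cells, 4, 1 and 9 by animal. Without animal 3 its count fell under the minimum of 10 UMIs, at a mean of 8.47 CPM. SLC38A6 of the neutral amino acid family, SLC16A7, a monocarboxylate transporter that takes up lactate and pyruvate, and SLC12A4, a potassium-chloride cotransporter, completed the list with smaller margins, by 2.70, 1.64 and 1.44 times over the next lineage. The call of SLC12A4 was lost with no doublet removal.

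SLC40A1, ferroportin, the one known exporter of cellular iron, also met the rule in ciliated-like cells, although macrophages are its best-known site. It had 153, 166 and 131 CPM in ciliated-like cells, against 89.3, 81.1 and 94.0 CPM in monocyte or macrophage-like cells. The values did not overlap, but the difference between these lineages was 0.27 ± 0.26 (log2 ± SE, edgeR adjusted p = 0.44), and after TMM scaling, which adjusts for the makeup of each library, animal 3 had 100.1 and 103 CPM and the call was lost, as was that of SLC12A4. Within the macrophages its level varied by cluster. SLC40A1 had 151, 137 and 98.5 CPM in cluster 3, led by TBXAS1, CYP7A1 and GPNMB, against 41.8, 35.1 and 37.9 CPM in cluster 2, led by P2RY13, IDO1 and CALHM6. Cluster 12, unnamed since it scored for both macrophage and osteoclast markers, had 420, 245 and 328 CPM, above the ciliated-like cells in every animal. The partner gene CP, ceruloplasmin, which oxidises exported iron, set ciliated-like cells apart at a mean of 1549 CPM, against 233 CPM in fibroblast-like cells. The 10 measured macrophage markers summed to 919, 869 and 1407 CPM in ciliated-like cells, against 5673, 5620 and 4555 CPM in monocyte or macrophage-like cells, and their part in the SLC40A1 level was not tested.

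**Figure D3:**
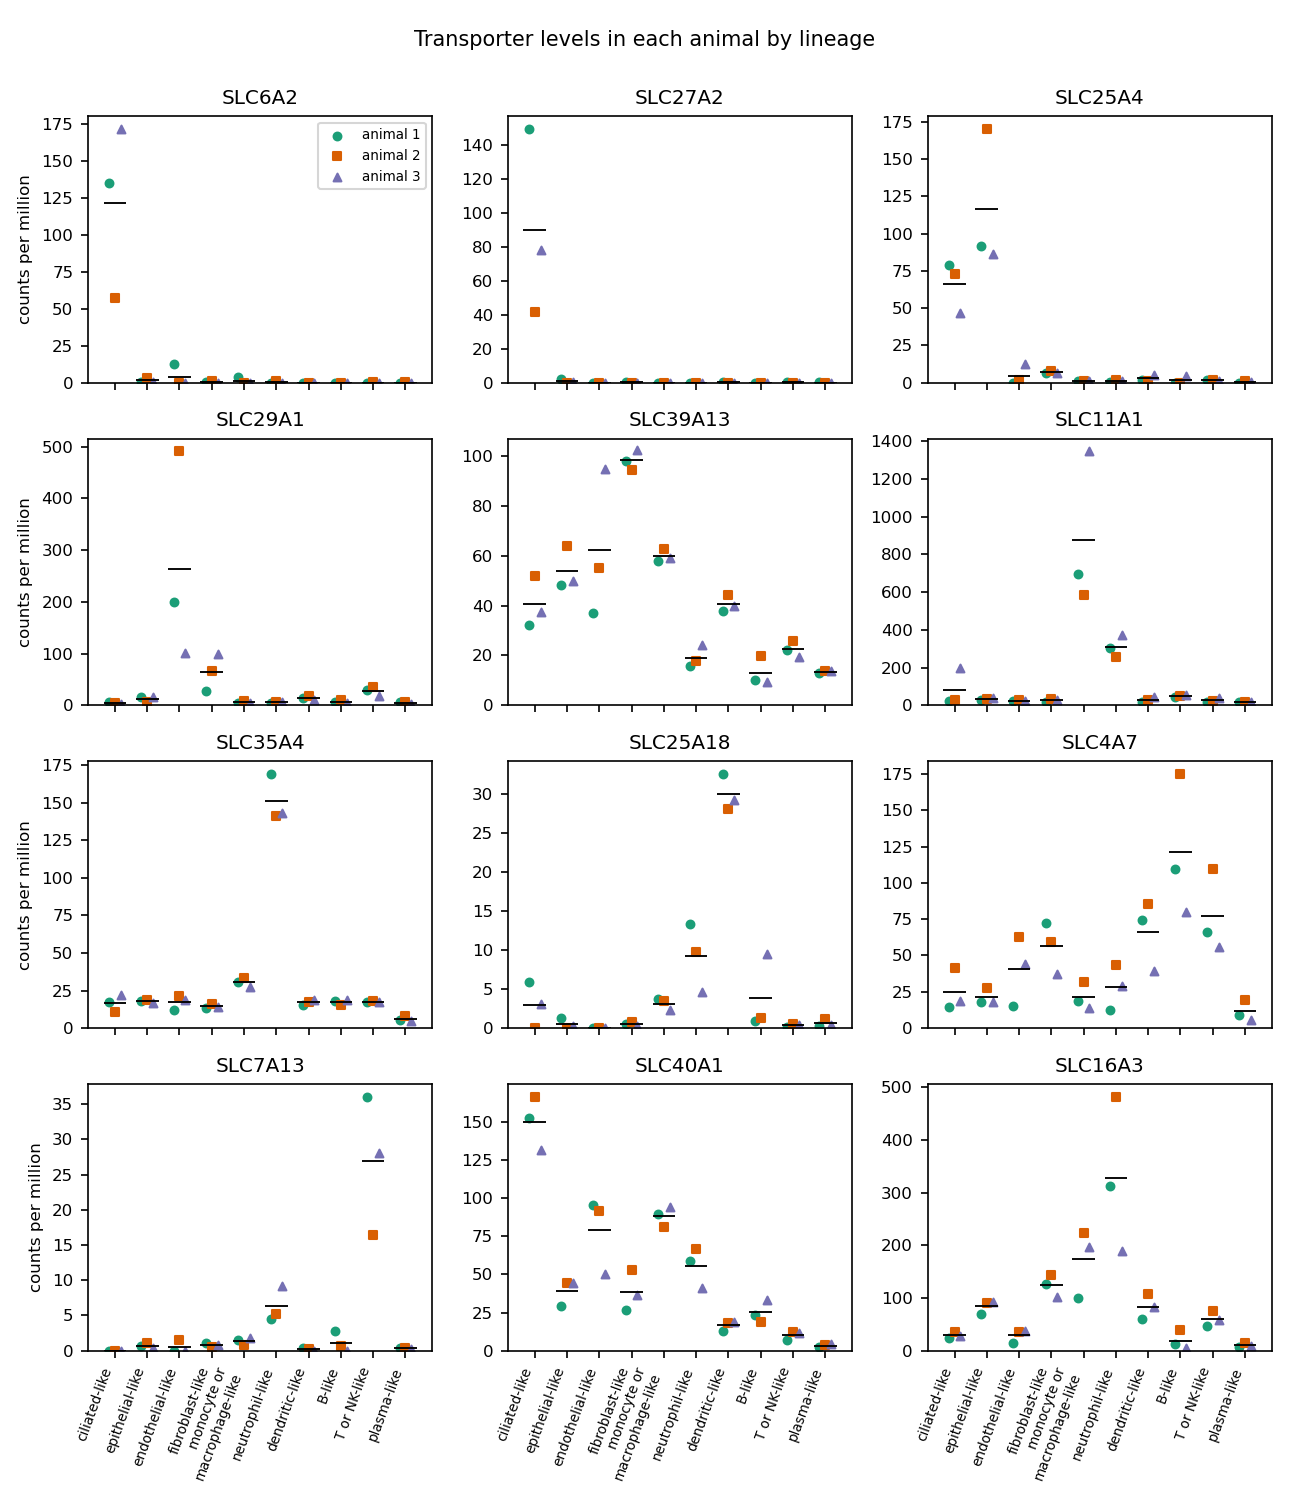
CPM of 12 transporters in each animal (circle, square and triangle for animals 1, 2 and 3) by lineage, with a line at the mean. SLC6A2, SLC27A2 and SLC35A4 stand clear of all other lineages, whereas SLC40A1 and SLC16A3 are spread over several.

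Epithelial-like cells, which carried alveolar and secretory markers, were set apart by 7 transporters, where 2.38% of all features met the rule. The group joined mitochondrial carriers with folate, sugar, fatty acid and metal transport. SLC25A4, the ADP/ATP carrier best known from heart and muscle, had 91.7, 170 and 86.4 CPM in epithelial-like cells, against 79.2, 72.8 and 46.9 CPM in ciliated-like cells and a mean of 6.97 CPM in fibroblast-like cells. The log2 difference from ciliated-like cells was 0.97 ± 0.36 (edgeR adjusted p = 0.046). SLC25A4 and SLC25A5 are close copies whose reads the counting could divide, so their split is uncertain. SLC25A5, the more widely expressed ADP/ATP carrier, had means of 326 CPM in ciliated-like and 258 CPM in dendritic-like cells, and 151 CPM in epithelial-like cells.

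At a finer clustering the epithelial-like cells fell into a cluster led by SFTPC and one led by SCGB3A2. SFTPC is the alveolar type 2 surfactant gene and SCGB3A2 a secretory airway gene. By the marker lists, however, the SFTPC cluster scored higher for alveolar type 1 than for type 2 cells. The SCGB3A2 cluster was named basal and also scored for both alveolar lists. The clusters are therefore called by their leading genes, which do not settle their cell type. SLC25A4 had 257, 231 and 157 CPM in the SFTPC cluster, against 42.0, 54.1 and 63.3 CPM in the SCGB3A2 cluster. SLC44A4 went the other way, with 2.68, 0 and 12.1 CPM in the SFTPC cluster, against 44.4, 88.0 and 27.7 CPM in the SCGB3A2 cluster. In neither gene did the clusters overlap, but the SCGB3A2 cluster held 17 cells in animal 2. In the SFTPC cluster SLC44A4 rested on 1, 0 and 9 UMIs. This split was seen after the data were known and was not tested.

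SLC50A1, the SWEET family sugar transporter, had 173, 225 and 155 CPM in epithelial-like cells, against 129, 146 and 106 CPM in ciliated-like cells. SLC25A10, the mitochondrial dicarboxylate carrier, had 42.2, 30.1 and 42.6 CPM, against 12.8, 10.9 and 29.1 CPM in monocyte or macrophage-like cells. SLC19A1, the reduced folate carrier, had 27.5, 25.5 and 36.5 CPM, against 15.0, 23.6 and 19.1 CPM in T or NK-like cells, a log2 difference of 0.68 ± 0.22 (edgeR adjusted p = 0.0083). None of these 3 overlapped the next lineage. The call of SLC19A1 was lost when levels were ranked after TMM scaling, where plasma-like cells came next, and that of SLC25A10 with no doublet removal. SLC39A8, which imports zinc and manganese, had 8.56, 10.4 and 16.6 CPM, against 0, 0 and 12.5 CPM in ciliated-like cells, and overlapped them. SLC16A4 and the fatty acid transport protein SLC27A4 overlapped the next lineage as well, and exceeded it by 1.71 and 1.29 times in the mean, and the call of SLC27A4 was lost with no replicate block (log2 fold change 0.99). In unnamed cluster 21, led by the mesothelial gene MSLN, SLC39A8 reached 93.5 CPM over its summed cells, 118 of 160 of them from animal 3. Among related genes outside the naming pattern, the prostaglandin transporter SLCO2A1 had a mean of 187 CPM in epithelial-like cells, against 87.2 CPM in endothelial-like cells, and FLVCR2, HEPH and MFSD2A also set the epithelial-like cells apart.

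Endothelial-like cells were set apart by 8 transporters, beside 5.15% of all features. SLC29A1, the equilibrative nucleoside transporter that clears adenosine, had 200.2, 491 and 101 CPM in endothelial-like cells, against 28.4, 67.1 and 99.4 CPM in fibroblast-like cells. The lowest endothelial-like library stood just above the highest fibroblast-like one, and animal 2 was the highest. The endothelial-like library of animal 3 stood apart in markers of other cells. The 9 fibroblast markers summed to 108, 366 and 1346 CPM in endothelial-like cells of animals 1, 2 and 3, and the 5 plasma markers to 2624, 2758 and 39839 CPM. Without animal 3 endothelial-like cells were set apart by 9 transporters, and SLC29A1 averaged 346 CPM there, against 47.7 CPM in fibroblast-like cells. The log2 difference from fibroblast-like cells was 1.76 ± 0.36 (edgeR adjusted p = 0.00040), but after TMM scaling animal 3 had 77.1 CPM in endothelial-like cells, against 87.3 CPM in fibroblast-like cells, and the call was lost. SLC9A5, a sodium-proton exchanger known from brain, had 21.6, 38.1 and 41.1 CPM, against 4.70, 11.6 and 7.13 CPM in fibroblast-like cells, with no overlap. Of the zinc exporters that fill vesicles, 2 were here. SLC30A4 had 15.4, 15.3 and 12.6 CPM, against 6.31, 7.01 and 6.06 CPM in monocyte or macrophage-like cells, and SLC30A3 had 6.16, 9.15 and 6.32 CPM from 10 UMIs.

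The rarer of these calls rested on few UMIs. SLC45A3, a sugar transporter known as prostein from prostate, had 24.6, 7.63 and 3.16 CPM in endothelial-like cells, from 14 UMIs, and without animal 1 it did not pass (edgeR adjusted p = 0.057). Without animal 2 it did not pass the filter on low counts and was not tested. SLC30A3 fell under 10 UMIs without any 1 of the animals, at 7.74, 6.24 and 7.66 CPM in the mean without animals 1, 2 and 3. SLC30A4 did so without animal 2, at 14.02 CPM. The choline transporter-like SLC44A2, SLC49A4 and the magnesium transporter SLC41A1 were also set apart, by 2.04, 1.80 and 1.79 times over the next lineage, and SLC44A2 and SLC41A1 overlapped another lineage. The call of SLC49A4 was lost when levels were ranked after TMM scaling.

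Fibroblast-like cells were set apart by 4 transporters, beside 3.74% of all features. SLC39A13, the zinc transporter whose loss in humans and mice gives a connective tissue disorder, had 97.98, 94.4 and 102 CPM, against 36.96, 54.9 and 94.8 CPM in endothelial-like cells, and it was the only one of the 4 to keep its call both at equal depth per cell and after TMM scaling, although its lowest value lay under the highest endothelial-like one. SLC5A3, the sodium and myo-inositol cotransporter, had 354, 458 and 378 CPM, against 208, 203 and 347 CPM in dendritic-like cells. Without animal 1 its log2 fold change against the other lineages was 0.95, under the limit of 1. SLC2A11, a fructose and glucose carrier, had 10.5, 11.6 and 14.2 CPM, against 8.80, 5.20 and 6.25 CPM in ciliated-like cells. SLC25A13, citrin, the mitochondrial aspartate and glutamate carrier, had 31.3, 33.95 and 26.8 CPM, against 25.1, 33.6 and 23.04 CPM in epithelial-like cells, a log2 difference of 0.14 ± 0.23 (edgeR adjusted p = 0.70). It stood higher in unnamed cluster 20, led by SERPINE2, SPINK5 and KRT14, at 167 CPM, where 199 of 202 cells came from animal 2.

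The fibroblast-like lineage joined 2 clusters, and some transporters differed between them, a comparison added after the data had been seen. Cluster 5, led by MMP3 and IGF2, was the deeper. Its cells had a median of 18028 UMIs, and those of cluster 9, led by MGP and CCL19, had 5386. Of 115 transporters tested, 26 were higher and 25 lower in the MMP3 and IGF2 cluster, near the 22.2% and 21.9% of 11687 features. The counts therefore do not set transporters apart from other genes. With every cell thinned to 1000 UMIs the counts were 9 and 7. SLC6A4, the serotonin transporter, had 9.06, 32.7 and 6.15 CPM in the MMP3 and IGF2 cluster, against 0, 0 and 0.379 CPM in the MGP and CCL19 cluster, where it had 1 UMI, and too few counts were left to test it at equal depth. SLC16A3, the lactate exporter of glycolytic cells, had 142, 164 and 117 CPM, against 32.8, 85.0 and 48.5 CPM, a log2 difference of 1.27 ± 0.21 (edgeR adjusted p = 0.0018) and of 1.80 at equal depth. SLC19A1, the folate carrier, had 16.1, 24.7 and 19.8 CPM, against 4.41, 5.001 and 5.30 CPM. SLC25A13, SLC2A11 and SLC25A37, the mitochondrial iron importer, were also higher, by log2 differences of 1.62, 1.41 and 1.36. SLC5A3 had means of 440 and 228 CPM in the 2 clusters (log2 difference 0.81 ± 0.10, edgeR adjusted p = 0.00046). In the MGP and CCL19 cluster SLC25A13, SLC2A11 and SLC5A3 had means of 10.7, 4.78 and 228 CPM. These lay under the 27.2, 6.75 and 253 CPM of the next lineage. SLC39A13 had 85.7 CPM in that cluster, above the 62.2 CPM of endothelial-like cells.

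SLC16A9, a carnitine-carrying member of the monocarboxylate family, showed the steepest fall among those named by the rule. It had 3.16, 3.26 and 3.94 CPM in the MMP3 and IGF2 cluster, against 58.1, 47.7 and 67.0 CPM in the MGP and CCL19 cluster, a log2 difference of −4.19 ± 0.15 (edgeR adjusted p = 8.6e-07) and of −4.54 at equal depth. Ferroportin, SLC40A1, had 14.1, 27.4 and 19.8 CPM, against 107, 129 and 102 CPM, a log2 difference of −2.63 ± 0.15. SLC10A6, a steroid sulphate carrier, SLC16A4, SLC2A6 and SLC16A7 were lower as well, at log2 differences of −1.98, −1.72, −1.42 and −1.32, and in none of these 6 did the clusters overlap across animals.

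**Figure D4:**
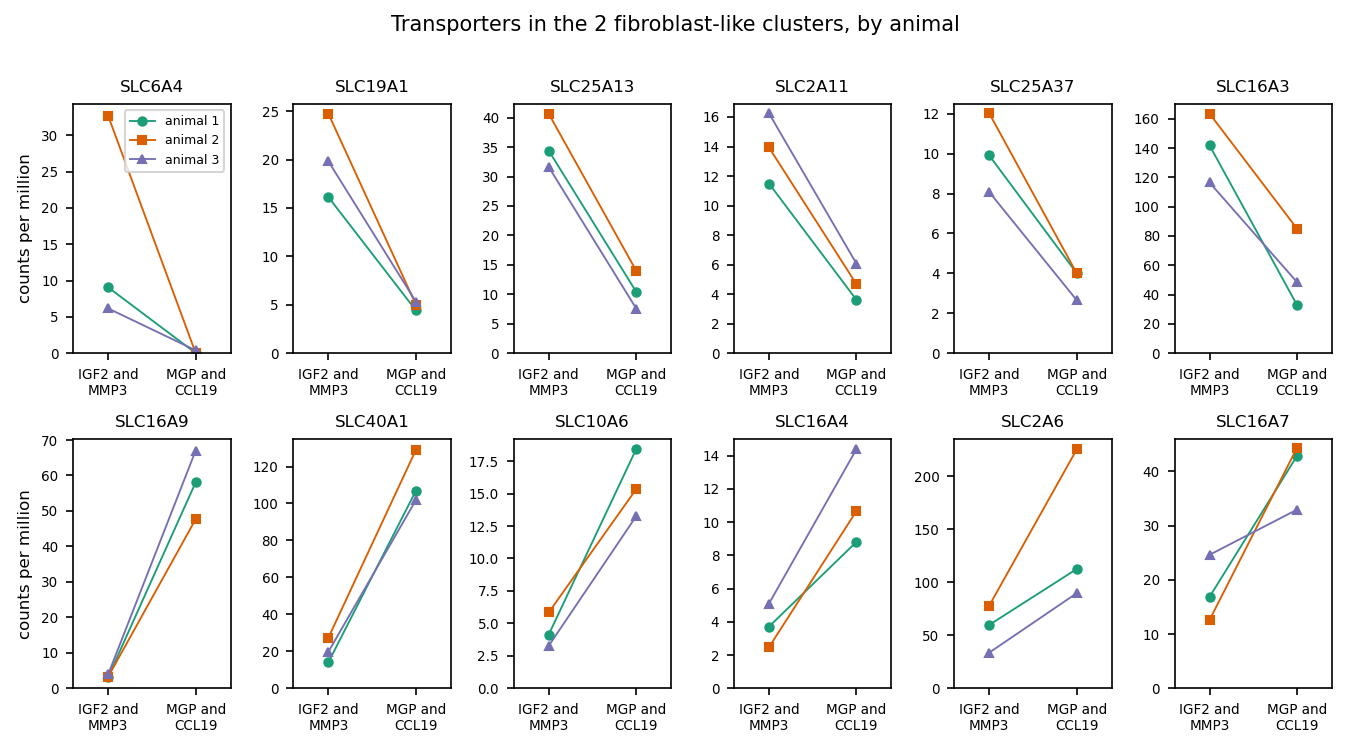
CPM of the 12 transporters named by the rule in the MMP3 and IGF2 cluster (left in each panel) and the MGP and CCL19 cluster (right), with a line joining the clusters of 1 animal. The upper row falls and the lower row climbs from left to right in all 3 animals.

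Monocyte or macrophage-like cells were set apart by 5 transporters, beside 1.96% of all features (10 without animal 3), and 53 transporters were higher and 15 lower in them, beside 27.7% and 18.6%. SLC11A1, the phagosomal iron and manganese pump that limits intracellular microbes, had 694, 584 and 1346 CPM, against 302, 259 and 371 CPM in neutrophil-like cells, its other known site. The lineages did not overlap, and the log2 difference was 1.24 ± 0.29 (edgeR adjusted p = 0.0013). By cluster SLC11A1 had 1192, 991 and 1465 CPM in cluster 3, against 305, 305 and 384 CPM in cluster 2 and 298, 410 and 445 CPM in cluster 11, led by CFD and SORL1. Cluster 3 held 918 of the lineage's 1301 cells in animal 3, against 374 of 1592 in animal 1 and 461 of 1940 in animal 2. In ciliated-like cells SLC11A1 had 23.5, 26.01 and 200.1 CPM, the last in the library with the highest sum of macrophage markers among the 3 ciliated-like ones.

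SLC4A3, a chloride and bicarbonate exchanger, had 24.9, 31.4 and 28.5 CPM in monocyte or macrophage-like cells, against 3.08, 15.3 and 3.16 CPM in endothelial-like cells. SLC46A2, of the family of the proton-coupled folate transporter, had 33.7, 28.99 and 27.8 CPM, against 17.8, 16.8 and 20.2 CPM in dendritic-like cells, but the call was lost with no doublet removal, at a mean of 20.98 CPM against 18.7 CPM, with transporters kept in clustering and at equal depth per cell. SLC15A4, the endolysosomal histidine and peptide transporter needed for Toll-like receptor signalling, had 50.7, 65.0 and 49.0 CPM, against 41.9, 45.7 and 37.8 CPM in neutrophil-like cells, and the difference was not past the threshold (0.20 ± 0.22 on the log2 scale, edgeR adjusted p = 0.53). SLC38A7, which exports glutamine from lysosomes, exceeded fibroblast-like cells by 1.11 times, overlapped them and lost its call under the same alternatives and after TMM scaling. The transferrin receptor gene TFRC, the partner for iron uptake, set the lineage apart as well, at a mean of 175 CPM against 65.6 CPM in dendritic-like cells.

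Neutrophil-like cells had medians of 1593, 1379 and 2873 UMIs per cell in animals 1, 2 and 3, the fewest of the lineages in animals 1 and 2. They were set apart by 4 transporters, beside 2.88% of all features, and by 10 without animal 3. The neutrophil-like library of animal 3 stood apart in markers of other cells. The 14 T or NK markers summed to 411, 366 and 1276 CPM in neutrophil-like cells of animals 1, 2 and 3. The median mitochondrial shares were 1.43%, 1.52% and 5.24%. The part of this in the levels below was not tested. SLC35A4, of the nucleotide sugar transporter family, had 169, 142 and 143 CPM, against 30.4, 33.5 and 27.2 CPM in monocyte or macrophage-like cells, a log2 difference of 2.49 ± 0.15 (edgeR adjusted p = 5.3e-13), and no other library came near. SLC2A6, a lysosomal hexose transporter, had 231, 398 and 105 CPM, against 115, 154 and 24.2 CPM, so the lineages overlapped across animals while neutrophil-like cells were the higher in each. SLC38A1, a glutamine transporter, had 81.9, 97.6 and 54.9 CPM, against 63.6, 63.3 and 47.1 CPM in B-like cells, and its call was lost with no doublet removal. SLC25A25, a mitochondrial ATP carrier, rested on 25 UMIs. SLC16A3, chosen after its values were seen, had 314, 483 and 190 CPM in neutrophil-like cells, against 100.3, 224 and 197 CPM in monocyte or macrophage-like cells. It was higher than the mean of the others by 2.99 ± 0.17 (log2, edgeR adjusted p = 1.3e-14) but missed the rule, since in animal 3 the macrophages were higher.

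B-like cells were set apart by 3 transporters, or 2.29% of those tested, near the 2.61% of all features. The bicarbonate importer SLC4A7 had 109, 175 and 80.1 CPM, against 66.2, 110 and 55.5 CPM in T or NK-like cells. The lysosomal SLC46A3 had 41.2, 35.4 and 42.4 CPM, against 28.6, 17.6 and 6.87 CPM in neutrophil-like cells. That difference was not past the threshold (0.63 ± 0.35 on the log2 scale, edgeR adjusted p = 0.19). The Golgi sodium-proton exchanger SLC9A7 had 19.6, 20.2 and 28.3 CPM, against 9.58, 9.75 and 8.52 CPM in dendritic-like cells. SLC4A7 overlapped T or NK-like cells across animals, and animal 3 held 66 B-like cells.

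T or NK-like cells were set apart by 1 transporter, SLC7A13, beside 3.42% of all features, and by 2 without animal 1 or animal 3. SLC7A13, known in kidney as an aspartate, glutamate and cystine carrier, had 36.1, 16.4 and 28.1 CPM, against 4.44, 5.28 and 9.16 CPM in neutrophil-like cells, a log2 difference of 1.78 ± 0.31 (edgeR adjusted p = 4.5e-05). Within the lineage it had 79.7, 32.5 and 46.6 CPM in cluster 13, led by TNFRSF4, CD27 and FOXP3, against 41.5, 20.8 and 30.6 CPM in cytotoxic cluster 6. Dendritic-like cells were set apart by 2 mitochondrial carriers, beside 2.88% of all features, and by 5 transporters without animal 3. The glutamate carrier SLC25A18 had 32.5, 28.03 and 29.2 CPM, against 13.3, 9.67 and 4.58 CPM in neutrophil-like cells, with no overlap. The aspartate and glutamate carrier SLC25A12 had 64.0, 69.5 and 42.2 CPM, against 49.9, 41.6 and 37.5 CPM in ciliated-like cells, and overlapped them.

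No transporter (0 of 131) set plasma-like cells apart on plain CPM, beside 0.518% of all features, also with DESeq2, although edgeR gave an unadjusted p under 0.05 to 62 of them. Transporters made up 794, 1070.5 and 687 CPM there, the least of all lineages, against 3200, 3712 and 4032 CPM in monocyte or macrophage-like cells. Their libraries had TMM factors of 0.330, 0.430 and 0.256, and without TMM the median of all features shifted by −1.75 on the log2 scale. The direction therefore followed the scaling, with 34 transporters higher and 20 lower under TMM, beside 24% and 21.2% of all features, and 5 higher and 92 lower by library size.

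With levels ranked after TMM scaling, an alternative added after the data had been seen, 7 of 131 transporters set plasma-like cells apart, near the 4.61% of all features by the same ranking. They were SLC39A7, the zinc channel of the endoplasmic reticulum, SLC33A1, which brings acetyl-CoA into it, the neutral amino acid exchangers SLC1A5 and SLC1A4, SLC3A2, the heavy chain of the large amino acid exchangers, SLC38A10 of the amino acid family and the peptide transporter SLC15A2. SLC39A7 had 280.2, 230.4 and 254 TMM-scaled CPM, against 95.9, 65.5 and 104 in fibroblast-like cells, and on plain CPM 92.6, 99.0 and 65.1 against 111, 85.6 and 119. SLC1A5 had 187, 157 and 225 TMM-scaled CPM, against 105, 105 and 97.1 in T or NK-like cells. On plain CPM it had 61.7, 67.3 and 57.7 in plasma-like cells, against 118, 124 and 102 in T or NK-like cells. Without TMM the log2 fold change against the other lineages turned negative for 4 of the 7, SLC1A5 (−0.15), SLC33A1 (−0.21), SLC38A10 (−0.26) and SLC3A2 (−0.72), and stayed positive for SLC39A7 (0.67), SLC15A2 (2.38) and SLC1A4 (1.32). Under TMM the 7 stood between 1.03 for SLC3A2 and 4.07 for SLC15A2.

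**Figure D5:**
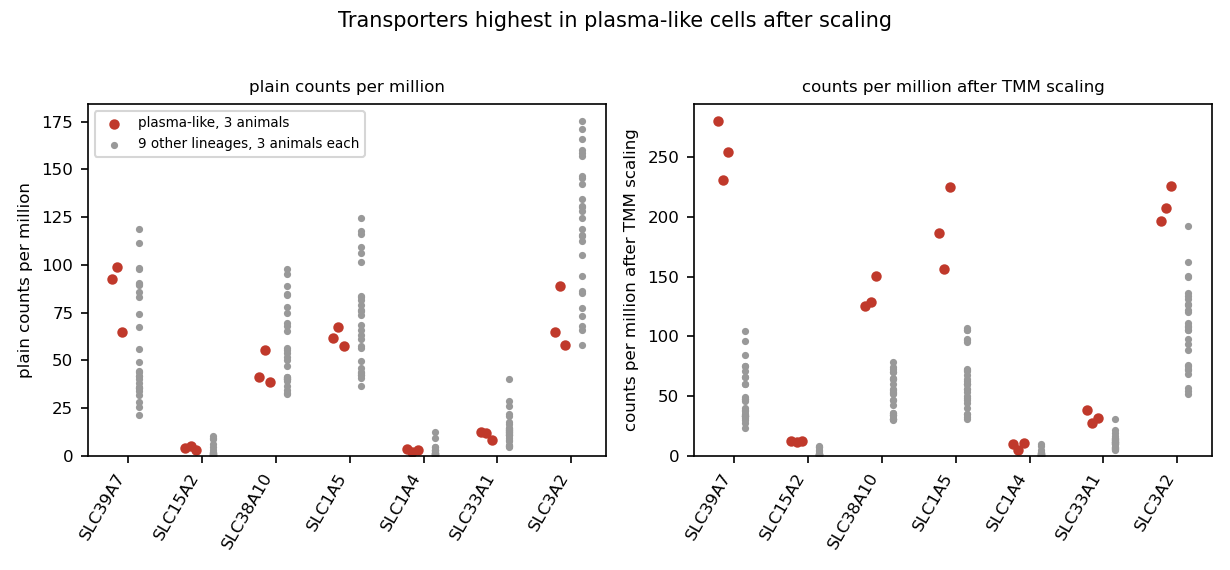
The 7 transporters that were highest in plasma-like cells (red, 3 animals) after TMM scaling, beside the 27 libraries of the other lineages (grey), on plain CPM at left and after scaling at right. At left the red points lie among or at the foot of the grey ones, and at right SLC39A7, SLC38A10 and SLC1A5 stand clear above them.

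The split of calls in other lineages also moved with the scaling. Transporters higher and lower under TMM numbered 48 and 14 in epithelial-like cells (58 and 6 by library size), 49 and 22 in fibroblast-like cells (64 and 16), 29 and 16 in ciliated-like cells (38 and 5), 19 and 17 in endothelial-like cells (39 and 3) and 31 and 17 in neutrophil-like cells (27 and 24). They numbered 21 and 36 in T or NK-like cells (31 and 27, or 13 and 56 with DESeq2), 26 and 25 in dendritic-like cells (22 and 36 with DESeq2), 53 and 15 in monocyte or macrophage-like cells (48 and 33 with DESeq2) and 15 and 22 in B-like cells (16 and 18). The background under TMM was 24.7% higher and 16.6% lower in epithelial-like, 30.4% and 22.3% in fibroblast-like, 20% and 15.6% in ciliated-like, 16.3% and 14.4% in endothelial-like, 22% and 16.5% in neutrophil-like, 29.6% and 20.8% in T or NK-like, 22.3% and 17.4% in dendritic-like and 17% and 15.9% in B-like cells. Under TMM the members' median log2 fold change was 0.32 in monocyte or macrophage-like cells, beside 0.02 for all features, 0.30 in epithelial-like cells, beside 0.02, and −0.28 in dendritic-like cells, beside −0.03. In T or NK-like cells it was −0.19, beside 0.06. The order of the lineages by the members' median moved with the scaling, and the medians of all features moved too. With DESeq2 the members' median was 0.14 in monocyte or macrophage-like cells, beside −0.14 for all features, and 0.32 in epithelial-like cells, beside 0.04. It was −0.42 in dendritic-like cells, beside −0.12, and −0.47 in T or NK-like cells, beside −0.14. By library size the members' medians were 0.30, 0.55, −0.11 and −0.01, beside −0.03, 0.25, 0.14 and 0.24. In each of these lineages the members' median lay on the same side of that of all features under every scaling.

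Low levels marked lineages too. SLC40A1 was lower in T or NK-like cells, at 6.75, 11.96 and 11.9 CPM, against a mean of 55.1 CPM over the other lineages (log2 fold change −2.04 ± 0.22, edgeR adjusted p = 8.9e-09), and in dendritic-like cells, at 12.7, 18.04 and 18.8 CPM (−1.25 ± 0.22). SLC44A2 was lower in plasma-like cells, at 0.601, 1.31 and 0.549 CPM, against a mean of 28.97 CPM (−3.10 ± 0.32, edgeR adjusted p = 5.5e-09), and in dendritic-like cells (−1.25 ± 0.26). SLC16A3 was lower in B-like, ciliated-like and endothelial-like cells, by −1.70, −1.63 and −1.70. SLC11A1 was lower in endothelial-like, fibroblast-like and T or NK-like cells, by −1.82, −1.54 and −1.46, and SLC38A1 in fibroblast-like cells by −1.34. SLC66A3 and SLC2A6 were lower in epithelial-like cells, at −1.41 and −1.22, and SLC2A6 in ciliated-like cells at −1.63 from 14 UMIs. SLC29A1 was lower in monocyte or macrophage-like cells at −1.40, and the choline transporter SLC44A1 and the lysosomal sialic acid exporter SLC17A5 in neutrophil-like cells at −1.40 and −1.01. SLC25A4 was called lower in B-like, plasma-like and monocyte or macrophage-like cells, on 1, 9 and 47 UMIs. The call of SLC29A1 was lost with no doublet removal (−0.81, edgeR adjusted p = 0.054). With cells thinned to equal depth, which leaves fewer counts, 9 of these lower calls were lost. Several of these calls were lost without 1 animal. Those of SLC44A1 and SLC17A5 were lost without animal 1 (edgeR adjusted p = 0.064 and 0.14), that of SLC2A6 in epithelial-like cells without animal 1 (0.054) and in ciliated-like cells without animal 1 or 2 (0.17 and 0.093), and that of SLC25A4 in B-like cells without animal 1 or 2 (0.11 and 0.26), in plasma-like cells without animal 1 or 3 (0.11 and 1) and in monocyte or macrophage-like cells without animal 3 (1).

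Some transporters had a high mean level and some an even one. The members with the most UMIs per library, as the mean CPM over lineages, were SLC5A3, SLC25A5, SLC11A1, SLC3A2 and SLC25A39, which also reflects how well each is captured. Of these, SLC11A1 was far from even, at 875 CPM in monocyte or macrophage-like cells, against a mean of 66.9 CPM over the other lineages. On plain CPM the most even, by the coefficient of variation over lineage means, were SLC25A46, a mitochondrial outer membrane protein (0.293), SLC3A2 (0.311), SLC25A39, the mitochondrial glutathione importer (0.312), SLC27A1, a fatty acid transport protein (0.324), and SLC1A5 (0.333). After TMM scaling SLC25A46 (0.111), SLC27A1 (0.219) and SLC25A39 (0.228) were the first 3 of the 37 members ranked, while SLC3A2 (0.389) stood at rank 12 and SLC1A5 (0.591) at rank 22. SLC3A2 ranged from 66.4 ± 7.6 CPM (SD, n = 3) in dendritic-like cells to 159 ± 12 CPM in fibroblast-like cells. SLC25A39 ranged from 43.5 ± 16 CPM in plasma-like cells to 149 ± 17 CPM in T or NK-like cells. Of 24 partner and related genes outside the naming pattern 12 were tested, 12 were higher and 9 lower in at least 1 lineage, and 6 set a lineage apart, beside 94.3%, 75.1% and 34.3% of all features.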

How the data were processed

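The deposited files are 1 matrix of raw, unnormalized UMI counts for each animal, per the file headers and values. The headers name Cell Ranger 7.1.0 and the submitters' processing notes name 8.0.0; the genome build is not given in the sources used here. Features without a symbol (11611) held 37.2% of UMIs and entered the fits unnamed. None (0) of the identifiers matched the RefSeq table, which lists 233 of the 239 symbols.

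Cells with at least 1000 UMIs, 500 genes and under 20% mitochondrial counts were kept. Scrublet's automatic threshold marked 1 of 25044 cells, which counts as not having worked, so instead every cell scoring 0.2 or more was removed, 445 in all. Clustering in scanpy 1.11.5 (leidenalg 0.10.2) used 2000 variable genes without any transporter, 30 components, 20 neighbours and resolution 1. Clusters were named where at least 3 listed markers were detected in at least 10% of cells and no rival list reached 50% of the score; letting B and plasma lists share a cluster was decided after seeing the data. Cells of 1 sample are not replicates, so counts were summed per animal and lineage (30 libraries, at least 10 cells each). They were fitted together with edgeR 4.0.16 in R 4.3.3 (quasi-likelihood test, filterByExpr and TMM, with a block for the animal). Benjamini-Hochberg adjustment ran over all features. The fit was also run on simulated counts with known changes. Apart from those changes they had the same mean profile in every lineage and no animal effect. That check therefore does not cover the differences in makeup between these libraries. Alternatives were DESeq2 1.42.0, no filter, no animal block, resolution 2, cells thinned to 1000 UMIs, no doublet removal, transporters kept in clustering, unnamed myeloid clusters joined, library size scaling, ranking after TMM, and each animal left out. Deeper cells weigh more in these sums. p-values measure only the spread between libraries of 3 animals that is left after the animal block, pooled over the 10 lineages. An SE is therefore not the spread of the 3 animals within the lineages compared.

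The animal was the block because lineages come from the same animal: deviations of libraries of 1 animal correlated at a median of 0.185. Between animals the median was −0.0913. Deviations were taken from each lineage's mean over the animals, which makes that value negative, so it adds no support for the block. The members, markers and lists were chosen with earlier results of these data known. All 44 transporters that set a lineage apart are named; those given in full are up to 4 per lineage by ratio to the next lineage, 2 lower per lineage, the 5 highest and the 5 most even. SLC16A3 and SLC40A1 in detail, the fibroblast clusters, the epithelial split and the ranking after TMM were added after seeing the data.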

Additional observations from a re-analysis of the deposited data

Results flagged for a closer look

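Several transporters were higher in clusters outside the comparison than in any named lineage. Each of the following had at least 20 CPM over the summed cells of its cluster and at least 3 times the highest lineage mean, and each interval is an exact 95% Poisson interval that covers counting error only. The difference from the lineages was not tested.

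In cluster 17, led by TIMELESS and scoring for B and dendritic markers, SLC12A1, the sodium-potassium-chloride cotransporter of the kidney, had 60.2 CPM (48.7 to 73.6), with 58.7, 54.7 and 75.8 CPM in animals 1, 2 and 3, against 0.135 CPM in fibroblast-like cells, the highest lineage. SLC38A11 had 29.1 CPM there (21.3 to 38.9), against 2.66 CPM in T or NK-like cells. Both were seen in every animal.

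In cluster 21, led by MSLN, SLC16A7 had 253 CPM (233 to 276), with 127, 238 and 274 CPM by animal, against 36.8 CPM in ciliated-like cells, and SLC39A8 had 93.5 CPM (81.1 to 107), against 11.9 CPM in epithelial-like cells. In osteoclast-like cluster 19 SLC37A2, of the family that exchanges sugar phosphates, had 159 CPM (148 to 169), against 40.4 CPM in dendritic-like cells, and in cluster 20, led by SERPINE2, SLC25A13 had 167 CPM (157 to 178), against 30.7 CPM in fibroblast-like cells. Clusters 19 and 20 rested on animal 2, with 835 of 860 and 1009 of 1019 UMIs of these genes. Cluster 21 held 8, 34 and 118 cells in animals 1, 2 and 3. SLC39A8 had 27.7, 117 and 93.6 CPM there, from 5, 59 and 139 UMIs.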

How the results depend on the processing

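Of 44 pairs of transporter and lineage, 16 were kept under all 13 alternatives, and 11 were lost only with every cell thinned to 1000 UMIs, which leaves fewer counts. Thinning gave 26 transporters (20 of the 44 pairs), 2 in endothelial-like, 4 in epithelial-like and 1 in fibroblast-like cells, with 150 calls higher (325 in the reported fit) and 55 lower (204), and 9 higher and 7 lower between the fibroblast-like clusters. With no filter on low counts fibroblast-like cells had 7, monocyte or macrophage-like 8, plasma-like 2 and T or NK-like 2. Ranked after TMM scaling, 9 pairs were lost, fibroblast-like cells had 2 and plasma-like cells 7. T or NK-like cells had 2 without TMM. With transporters kept in clustering macrophage-like cells had 3. The cause of these changes was not tested. Without 1 animal the total ran from 49 to 63, calls lower from 101 to 170, dendritic-like cells from 2 to 5, monocyte or macrophage-like from 7 to 10, neutrophil-like from 4 to 10 and T or NK-like from 1 to 2. To set a lineage apart in those fits, a transporter had to be highest only in the animals that remained, a looser rule than 3 of 3. The share of all features under that rule was not counted. A rise over 44 is therefore not a gain in calls under the same rule. With no replicate block for the animals 43 transporters set a lineage apart, and 18 were higher and 19 lower between the fibroblast-like clusters. For 50 named pairs, 639 values under alternatives were compared by direction and by adjusted p under 0.05, not by the rule for setting a lineage apart. Pairs not tested under an alternative were left out. Of these values, 22 no longer passed, 1 of them for a transporter that set a lineage apart, and 0 reversed direction. Ranking after TMM scaling reuses the reported fit, so it could not change this count. Ciliated-like and endothelial-like cells were few, so their low counts limit precision.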
